A study of Mus musculus with 7 samples.

Results

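The genes of 8 transcription factors of mammary luminal epithelium were followed: Foxa1, Gata3, Esr1, Elf5, Elf3, Ehf, Klf5 and Grhl2. They were listed by symbol, with earlier results of these data known. Of these 8, 7 have a row among the 11753 genes of the table that compares tumour and blood. Elf3 has no row in the table used here. All 8 have a row among the 12145 genes of the first library of a separate tumour experiment, 5 among the 8868 genes of its second library and 1, Ehf, among the 3315 genes of library 3.

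The cells came from the mammary tumours or the blood of mice with the PyMT transgene (polyoma middle T antigen), a breast cancer model that all groups share. The labels used here give no age, strain, promoter or number of animals. Single cells were sorted into wells, and their RNA was read by CEL-seq, which labels each cell and each molecule with a barcode at the 3' end of its transcripts. Experiment (i) held 3 libraries of 96 wells of tumour cells from the E-cadherin (Ecad) positive gate. Experiment (ii) held 4 libraries, each with 24 wells of solid tumour cells in the Ecad positive gate (here TEpos), solid tumour cells in the Ecad negative gate (here TEneg) and cells labelled as circulating, Ecad negative (here BEneg). Library 1 also had 24 wells labelled as circulating, Ecad positive (here BEpos).

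The mammary duct has an inner luminal and an outer basal layer. Gata3 is required to form and keep luminal cells, and Foxa1 opens chromatin for the oestrogen receptor, which Esr1 encodes, in hormone-sensing luminal cells. Elf5, Elf3 and Ehf belong to the epithelium-specific branch of the ETS family, and Elf5 drives the milk-secreting alveolar lineage. Klf5 is a Krüppel-like factor of proliferating epithelium, and Grhl2 is a grainyhead-like factor that sustains genes of cell junctions.

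Wells with at least 500 transcripts other than spike-ins were used: 71 TEpos, 69 TEneg, 60 BEneg and 20 BEpos wells, and 95, 65 and 1 wells of the 3 libraries of experiment (i). The library with 1 used well enters no level. Median wells differed in depth, at 2064 transcripts for TEpos, 1603 for TEneg, 819 for BEneg and, deepest of the 4, 3803 for BEpos. Each TEpos, TEneg or BEneg sum of a library held 11172 to 109892 transcripts. A level is given as transcripts per 10000 transcripts. Since each molecule is counted once at its 3' end, a level was not divided by gene length. All 95% intervals are exact (Poisson for levels, Clopper-Pearson for shares of wells) and cover counting error only. The level that a count of 0 is said to allow is 3 transcripts over the total. It lies below the upper end of the exact interval.

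The labels of the wells sorted from blood went against their marker genes. BEpos, labelled Ecad positive, held 1 transcript of Cdh1 (the E-cadherin gene), 3 of Epcam, 1 of Krt8 and 1 of Krt18 among 75125. Pooled Cdh1 did not mirror the Ecad label in the other populations either, at 5.01 per 10000 in TEpos, 5.39 in TEneg and 3.58 in BEneg. In libraries 1 to 4, Cdh1 stood at 3.37, 3.64, 10.7 and 5.86 in TEpos and 5.12, 6.39, 2.2 and 2.92 in TEneg. TEpos was thus lower in libraries 1 and 2 and higher in libraries 3 and 4. BEpos held 56 transcripts of the B cell gene Cd79a and 47 of the T cell gene Cd3d. Lists of leukocyte genes took 131 per 10000 in BEpos and 123 to 220 in the 4 BEneg libraries, against 3.63 to 15 in TEpos and 4.52 to 12.7 in TEneg. Lists of epithelial and junction genes took 3.87 per 10000 in BEpos and 11.4 to 28.7 in BEneg, against 56.6 to 84.6 in TEpos and 32.1 to 56.2 in TEneg. The general leukocyte marker Ptprc was at 0 in TEpos, TEneg and BEpos and at 1 transcript in BEneg. The levels below therefore describe wells by their labels, and the part of other cell types in each difference between blood and tumour was not tested.

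Positions of the factors come from the GENCODE annotation of GRCm38, the assembly that mm10 denotes. Gata3 lies at chr2:9857078-9890034 (minus strand) and Foxa1 at chr12:57540628-57546916 (minus strand). Ehf (chr2:103263433-103303278, minus strand) and Elf5 (chr2:103411688-103450989, plus strand) are neighbours, with 108409 bases and 0 protein-coding genes between them. Elf3 lies at chr1:135253575-135258568, Esr1 at chr10:4611593-5005614, Klf5 at chr14:99298691-99315036 and Grhl2 at chr15:37233036-37363569. Gata3, Elf3 and Grhl2 overlap annotated genes on the other strand, Gata3 also overlaps 9230102O04Rik on its own strand, and the use of strand in counting remains not given in the sources used here.

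RefSeq promoter entries (GRCm38.p6) were found for 5 of the 8 factors, and none for Ehf, Klf5 and Grhl2. The 250 bases before the start of Gata3, the factor that passed the test between blood and tumour, and of Foxa1, the factor most concentrated in few wells, are shown 5' to 3' on the strand of the gene. Capitals mark matches on either strand to the forkhead motif TGTTTAC, the GATA motif GATAA and the ETS core GGAA. The Gata3 window is chr2:9878601-9878850 and the Foxa1 window is chr12:57546112-57546361. Both windows precede the start of a RefSeq transcript but lie within the bounds of their genes in GENCODE, where longer transcripts begin further upstream.
Gata3: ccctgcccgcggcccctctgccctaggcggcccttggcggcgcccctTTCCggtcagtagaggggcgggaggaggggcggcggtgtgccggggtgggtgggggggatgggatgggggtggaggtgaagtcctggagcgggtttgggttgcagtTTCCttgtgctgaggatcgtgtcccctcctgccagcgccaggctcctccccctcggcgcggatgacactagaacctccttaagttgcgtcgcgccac
Foxa1: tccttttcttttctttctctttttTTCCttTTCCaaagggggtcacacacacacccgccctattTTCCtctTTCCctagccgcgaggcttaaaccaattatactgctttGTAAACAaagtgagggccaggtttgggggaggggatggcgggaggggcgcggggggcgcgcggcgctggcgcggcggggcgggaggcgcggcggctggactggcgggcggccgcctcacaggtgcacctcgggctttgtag
The Foxa1 window holds 1 forkhead match, read as its reverse complement GTAAACA, and 4 ETS cores. The Gata3 window holds 2 ETS cores and no GATAA. Among 32851 RefSeq windows of the same length, 3.17% hold the forkhead motif, 22.6% hold GATAA and 93.4% hold the ETS core. The grainyhead motif AACCNGTT (1.79% of windows, both strands) had no match in any of the 7 windows of these 5 factors. No match of 1 motif overlapped a match of another in the windows shown. These matches describe letters and not binding.

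Gata3 and Ehf were the factors with enough transcripts to compare across the sorted populations, and both were lowest in wells sorted from blood. In TEpos libraries 1 to 4, Gata3 had 27, 26, 13 and 18 transcripts, which are levels of 4.53, 3.62, 4.31 and 6.57 per 10000. In TEneg it had 12, 44, 3 and 5 transcripts, or 3.22, 4, 1.65 and 2.91 per 10000. In BEneg it had 0, 4, 1 and 1 transcripts, or 0, 1.58, 0.842 and 0.895 per 10000. Every TEpos and every TEneg library lay above every BEneg library, narrowly for TEneg library 3 (1.65) over BEneg library 2 (1.58), while TEpos and TEneg overlapped. The 0 in BEneg library 1 allows a level of up to 1.22 per 10000.

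Mean levels of Gata3 were 4.76 ± 1.27 in TEpos, 2.95 ± 0.98 in TEneg and 0.828 ± 0.645 in BEneg (SD, n = 4 libraries). Gata3 was the only one of the 7 factors with a row to pass the filter on low counts, which left 490 genes, so tests on the other 6 are not part of the edgeR fit. From TEpos to BEneg, Gata3 fell by 2.12 on the log2 scale (SE 0.60, edgeR adjusted p = 0.00466, lower in 4 of 4 libraries). Of the 490 genes, 21% were called lower and 48.2% were called in either direction in that comparison, and the 1 factor tested is read against that background. The range over alternatives was 6.25e-06 to 0.0539, and without library 1, where Gata3 was at 0 in BEneg, the value was -1.60 (adjusted p = 0.0539). Without library 2 it was -3.08 (adjusted p = 0.00183).

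From TEneg to BEneg, Gata3 fell by 1.73 on the log2 scale (SE 0.64, edgeR adjusted p = 0.0293, lower in 4 of 4 libraries), beside 17.1% of genes called lower and 41% called in either direction. This call was lost without library 1 (-1.20, adjusted p = 0.196) and without library 4 (-1.76, adjusted p = 0.0633), and the range over alternatives was 0.00419 to 0.196. Without library 2 it was -2.33 (adjusted p = 0.0429). It was also lost, at a similar fold, with DESeq2 (-1.69, adjusted p = 0.0678), without the filter (-1.89, adjusted p = 0.06) and without both the filter and 1 large TEneg well of library 2 (-1.79, adjusted p = 0.107).

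Between the 2 tumour populations, Gata3 did not pass (log2 fold change -0.39, SE 0.39, edgeR adjusted p = 0.644, lower in TEneg in 3 of 4 libraries), beside 1.63% of genes called lower in TEneg and 6.33% called in either direction. The value depended on which TEneg wells were counted. Of 69 TEneg wells, 34 lay above every TEpos well in the share of endothelial, basal or leukocyte list genes. Gata3 stood at 2.23 per 10000 (95% interval 1.22 to 3.74) in those 34 wells and at 4.17 (3.1 to 5.5) in the other 35. Ehf did not share this pattern once the large well of library 2 was left out. It stood at 1.91 (0.988 to 3.34) in those 34 wells and at 3.42 (2.46 to 4.64) in the other 35. Without the large well, the latter level was 1.02 (0.376 to 2.23), whereas that of Gata3 was 4.1 (2.63 to 6.1). Without the 34 wells the log2 fold change of Gata3 was 0.08 (edgeR adjusted p = 0.968). With the mean of log values over wells in place of sums it was -0.80 and passed (limma adjusted p = 0.0437), where the median of all genes was -0.21.

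**Figure D1:**
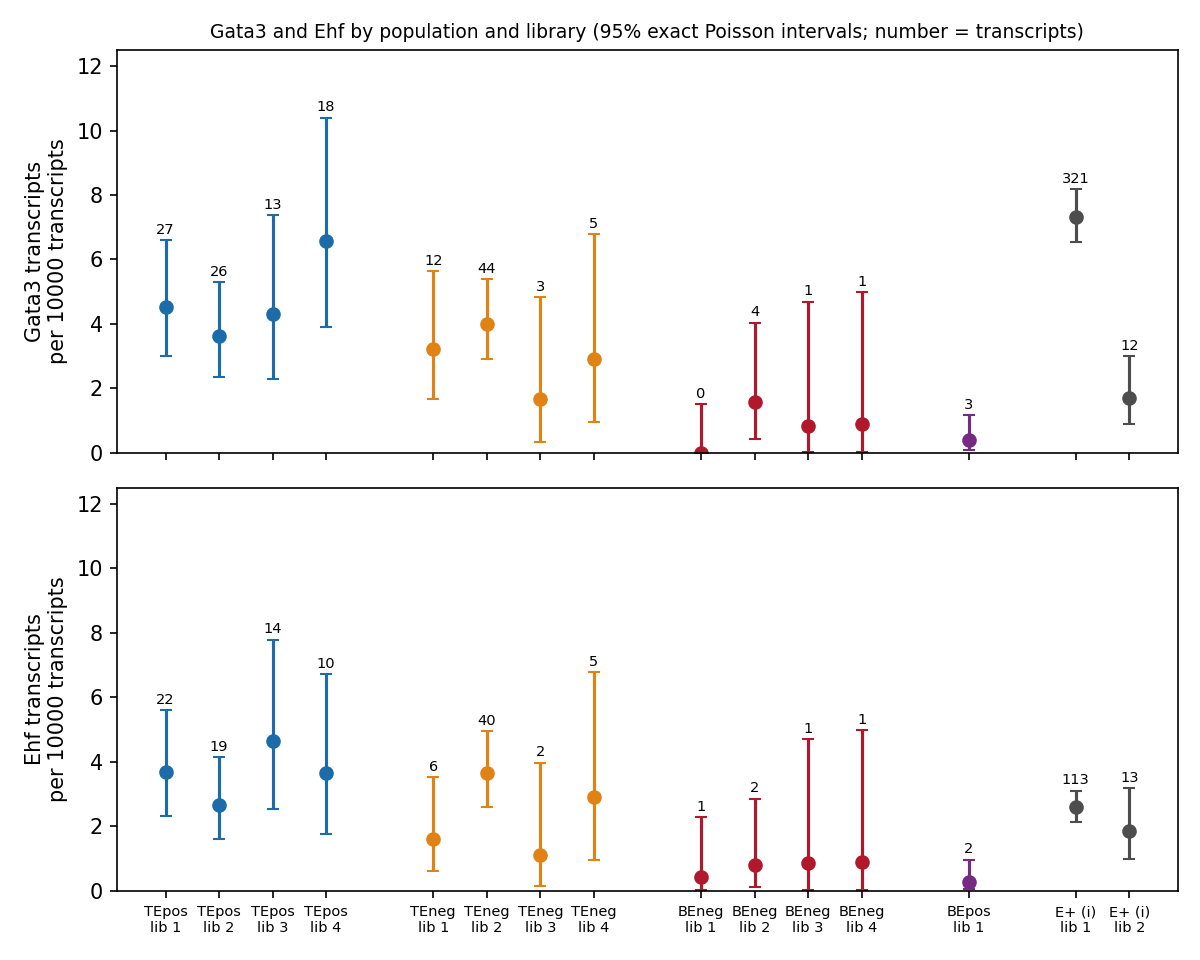
Levels of Gata3 (top) and Ehf (bottom) in transcripts per 10000 transcripts, for each population and library; points are levels, bars are 95% exact Poisson intervals and numbers are transcripts. All 4 BEneg libraries lie below all TEpos and TEneg libraries for both genes, and E+ (i) marks the 2 Ecad-positive libraries of experiment (i).

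Ehf, the ETS factor next to Elf5, showed the same order of levels. It had 22, 19, 14 and 10 transcripts in TEpos libraries 1 to 4 (3.69, 2.64, 4.64 and 3.65 per 10000). In TEneg it had 6, 40, 2 and 5 transcripts (1.61, 3.64, 1.1 and 2.91 per 10000). In BEneg it had 1, 2, 1 and 1 transcripts (0.407, 0.788, 0.842 and 0.895 per 10000). The BEneg libraries lay below all TEpos and TEneg libraries, and TEpos and TEneg overlapped.

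The means of Ehf were 3.66 ± 0.816 in TEpos, 2.31 ± 1.17 in TEneg and 0.733 ± 0.222 in BEneg (SD, n = 4 libraries). Ehf missed the filter on low counts. An exact two-sided sign-flip test over the 4 libraries gave p = 0.125 for BEneg against TEpos and for BEneg against TEneg, the smallest p that 4 pairs allow, and p = 0.375 for TEneg against TEpos. When every gene with a transcript was tested (11431 genes), Ehf fell by 2.51 on the log2 scale from TEpos to BEneg (SE 0.64, edgeR adjusted p = 0.00289), beside 2.58% of genes called lower. In that fit it did not pass from TEneg to BEneg (-1.81, adjusted p = 0.137, beside 1.68%) or from TEpos to TEneg (-0.69, adjusted p = 1, beside 0.411%). Without library 4, Ehf passed the filter and fell by 2.02 from TEpos to BEneg (edgeR adjusted p = 0.043), beside 14.8% of 586 genes called lower. In that fit it did not pass between BEneg and TEneg (-1.68, adjusted p = 0.112) or between TEneg and TEpos (-0.34, adjusted p = 0.808).

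A large well held most of the Ehf of TEneg. This library 2 well had 61227 transcripts, 33.5% of all TEneg transcripts, and carried 35 of 53 Ehf, 26 of 64 Gata3, 4 of 7 Klf5 and 5 of 8 Grhl2 transcripts. Its level was 5.72 per 10000 for Ehf and 4.25 for Gata3. Without it, TEneg library 2 stood at 1.03 per 10000 for Ehf (95% interval 0.334 to 2.4) and at 3.7 for Gata3 (2.19 to 5.85). With this well left out and no filter, a setting chosen once the values had been seen, Ehf differed between TEneg and TEpos by -1.41 (edgeR adjusted p = 0.137) and between BEneg and TEneg by -1.06 (adjusted p = 0.765).

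Foxa1, the pioneer factor, was rare in experiment (ii). It had 4, 2, 0 and 0 transcripts in TEpos libraries 1 to 4, 1, 1, 0 and 0 in TEneg, and 0 in all BEneg and BEpos sums. The 6 TEpos transcripts came from 4 wells, 1 of which held 3. Pooled levels were 0.317 per 10000 in TEpos (95% interval 0.116 to 0.691) and 0.11 in TEneg (0.0133 to 0.396), and the 0 in BEneg allows up to 0.411. No difference between populations was detectable at this depth.

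Esr1, the oestrogen receptor gene, had 1 transcript in all of experiment (ii), in the large TEneg well, and 1 in experiment (i). Its 0 among 189080 TEpos transcripts allows up to 0.159 per 10000. Elf5, the alveolar factor, had 2 transcripts in TEpos, 1 in TEneg and 0 in BEneg and BEpos. The junction regulator Grhl2 had 6 transcripts in 6 TEpos wells, 8 in 4 TEneg wells, 1 in BEneg and 0 in BEpos. Klf5 had 1 transcript in TEpos, 7 in TEneg, of which 4 were in the large well, 2 in BEneg and 0 in BEpos. The TEpos over TEneg ratio of Klf5 was 0.138 with an interval of 0.00306 to 1.07, so these counts did not separate the populations.

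Summed over the 7 factors, the level was 9.09 ± 1.53 per 10000 in TEpos, 5.94 ± 2.56 in TEneg and 1.86 ± 1.29 in BEneg (SD, n = 4 libraries). Most of each sum was Gata3 and Ehf. A transcript of at least 1 of the 7 was found in 74.6% of TEpos wells (95% interval 62.9 to 84.2%), 58% of TEneg wells (45.5 to 69.8%) and 18.3% of BEneg wells (9.52 to 30.4%). Of the 71 TEpos wells, 18 held none of the 7 factors, 26 held 1, 20 held 2 and 7 held 3 or more. Of the 69 TEneg wells, 29 held none, 33 held 1, 4 held 2 and 3 held more. Of the 60 BEneg wells, 49 held none and 10 held 1.

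Shares of wells depend on depth, so each well was also reduced in expectation to 500 transcripts, and no used well was shallower. Gata3 was then expected in 22.3% of TEpos, 13.2% of TEneg, 4.56% of BEneg and 1.82% of BEpos wells, against 59.2%, 36.2%, 8.33% and 15% as counted. For Ehf the expected shares were 15.4%, 8.19%, 3.3% and 1.31%, against 45.1%, 23.2%, 8.33% and 10% as counted. With libraries pooled, the order TEpos, TEneg, BEneg, BEpos held for both genes at equal depth, whereas BEpos, the deepest population, exceeded BEneg as counted. BEpos is in library 1 alone. There the expected BEneg shares were 0% for Gata3 and 1.07% for Ehf, below those of BEpos. The BEneg over BEpos ratio of levels in library 1 had intervals of 0 to 7.4 for Gata3 and 0.0259 to 29.4 for Ehf. The order of BEneg and BEpos was therefore not determined. The shares of BEneg wells as counted were at or below those of BEpos, a population near 0 in epithelial markers, and were not read as expression.

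**Figure D2:**
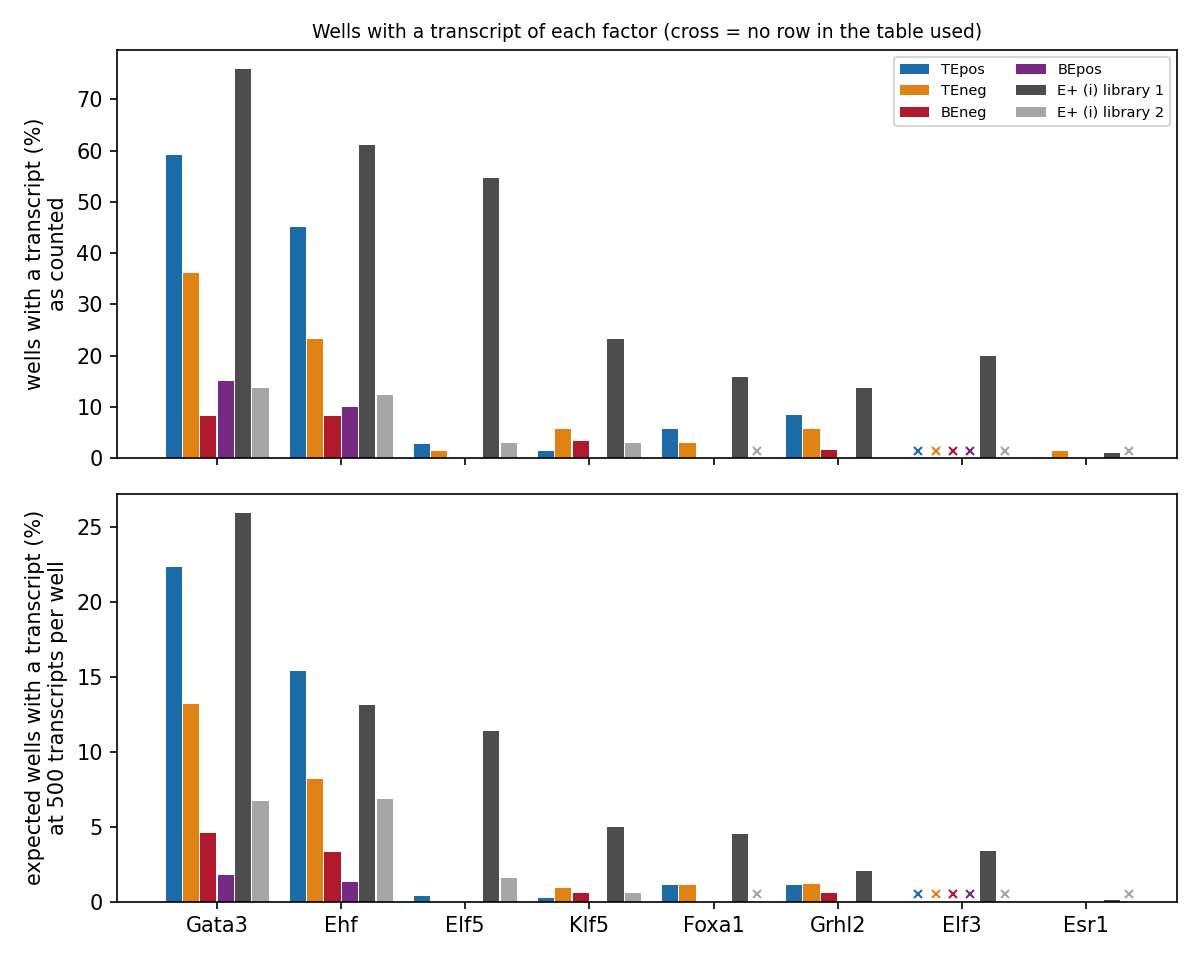
Share of used wells with at least 1 transcript of each factor (%), as counted (top) and expected at 500 transcripts per well (bottom), in the 4 populations of experiment (ii) and 2 libraries of experiment (i), E+ (i). Gata3 and Ehf are the most widely found factors, and Elf5 is frequent in library 1 of experiment (i) alone, at 54.7% of wells as counted.

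BEpos could be set against TEpos within library 1 only, with no replicate. Gata3 had 3 transcripts in BEpos (0.399 per 10000) and 27 in TEpos, a TEpos over BEpos ratio of 11.3 (95% interval 3.49 to 58.4). Ehf had 2 (0.266 per 10000) and 22, a ratio of 13.9 (3.41 to 122). The other 5 factors were at 0 in BEpos, which allows 0.399 per 10000 each. Gata3 is also a factor of T cells, and T and NK cell genes stood at 37.6 per 10000 in BEpos against 0 to 2.19 in the TEpos libraries. All 3 BEpos wells with Gata3 held T or NK cell transcripts, as did 16 of the 17 without. All 20 BEpos wells also held transcripts of the milk and luminal list, at 13.7 per 10000.

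Within TEpos, wells with Ehf had more transcripts of the milk and luminal list than wells without it, at 563 per 10000 in 32 wells and 390 in 39. For Gata3 the values were close, at 497 in 42 wells and 482 in 29. In TEneg the list stood higher in wells with either factor, at 469 in the 16 wells with Ehf and 231 in the 53 without, and at 414 in the 25 wells with Gata3 and 248 in the 44 without. The large well is among both the 16 and the 25. Wells with Ehf were deeper, with medians of 2368 against 1789 transcripts in TEpos and 2217 against 1455 in TEneg. Gata3 and Ehf were found together in 21 TEpos wells, Gata3 alone in 21, Ehf alone in 11 and neither in 18. Wells of a library are not replicates, so these values are a description.

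The second tumour experiment showed more of these factors in its first library. Gata3, Elf5, Ehf, Klf5 and Grhl2 have a row in both libraries. Summed over these 5, library 1 of experiment (i) held 581 transcripts, 13.3 per 10000 (95% interval 12.2 to 14.4), and library 2 held 29, 4.14 per 10000 (2.78 to 5.95). In library 1, 43 of 95 wells held 3 or more of the 5 factors and 5 held none, and in library 2 these counts were 0 and 45 of 65. Library 2 was shallower, at a median of 883 transcripts per well against 3083. The gap stayed at equal depth: a transcript of any of the 5 was expected in 47% of library 1 wells and 15.6% of library 2 wells at 500 transcripts, against 94.7% and 30.8% as counted. Lists of other cell types were higher in library 2, although both were labelled Ecad positive. Monocyte and macrophage genes stood at 122 per 10000 against 5.2 in library 1, basal genes at 64.7 against 1.61, leukocyte genes at 45.2 against 4.32 and endothelial genes at 14.4 against 1.73. With 1 library of each kind, library and cell makeup cannot be told apart.

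Elf5 was spread over many wells of that library. It had 94 transcripts in library 1 of experiment (i), 2.15 per 10000 (95% interval 1.73 to 2.63), spread over 52 of 95 wells with at most 6 in any well. Library 2 had 2 transcripts (0.286 per 10000, 0.0346 to 1.03) and the 4 TEpos libraries had 1, 0, 1 and 0. The ratio of library 1 to pooled TEpos was 20.3 (5.46 to 170) for Elf5 and 0.75 (0.548 to 1.03) for Ehf, its neighbour on chromosome 2. Expected at 500 transcripts per well, Elf5 was found in 11.4% of library 1 wells and 0.419% of TEpos wells. These ratios compare a single library with another experiment counted in a separate table, and no test was made.

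The remaining factors of that library were Gata3 with 321 transcripts in 72 wells (7.33 per 10000, 6.55 to 8.17), Ehf with 113 in 58 wells (2.58), Klf5 with 36 in 22 wells (0.822) and Grhl2 with 16 in 13 wells (0.365). Elf3, the ETS factor with no row in the other experiment's table, had 34 transcripts in 19 wells (0.776 per 10000, 0.537 to 1.08). In library 2, Gata3 had 12 transcripts (1.71 per 10000, 0.886 to 3), Ehf 13 (1.86, 0.989 to 3.18) and Klf5 2. Grhl2 was at 0 in its used wells, and Foxa1, Elf3 and Esr1 have no row there. Gata3 and Ehf of library 2 lay below all 4 TEpos libraries. The place of library 1 among them turned on its largest well, well 29. Gata3 was above all 4 TEpos libraries with that well and at 6.22 without it, below TEpos library 4 (6.57). Ehf was below the lowest TEpos library (2.64) with the well and at 2.92 without it.

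Foxa1 in library 1 was concentrated in few wells. Of 209 transcripts, 149 were in well 29, which held 65391 transcripts, 14.9% of the library. Wells 66, 96, 80 and 34 held 19, 18, 7 and 5, and 10 further wells held 1 or 2. The cut at 5 was chosen after the values were seen. The lowest well inside it held 5 and the highest outside held 2. Without well 29, the level of Foxa1 was 1.58 per 10000 (95% interval 1.21 to 2.04) in place of 4.77 (4.15 to 5.46). Well 29 also held 89 of 321 Gata3 and 11 of 34 Elf3 transcripts, but 3 of 94 Elf5 and 4 of 113 Ehf transcripts.

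Of these 5 wells, 29, 66 and 96 had the highest Foxa1 levels, at 22.8, 26.4 and 26.4 per 10000, against 10.9 in well 34 and 3.39 in well 80. These 3 are described together because of the genes that follow, which were seen first, so the values are a description. Cited1, a transcriptional co-regulator of hormone-responsive luminal cells, had 24, 25 and 22 transcripts there and 74 in the whole library. Krt8, a luminal keratin gene, had 429, 90 and 45 transcripts, a level above each of the other 90 wells, all with fewer than 5 Foxa1 transcripts. Krt19, another luminal keratin gene, had 192, 25 and 32 transcripts and lay above 89 of those 90 wells in each. The milk casein gene Csn3 had 96, 5 and 6 transcripts (14.7, 7.01 and 8.92 per 10000), against 108 per 10000 in the 80 wells with no Foxa1.

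The progesterone receptor gene Pgr had 70, 3 and 1 transcripts in these 3 wells, and the prolactin receptor gene Prlr 114, 1 and 6. Gata3 had 89, 10 and 0, so it was not shared by all 3. Elf5 had 3, 0 and 0. Esr1 was at 0 in all 5 wells with 5 or more Foxa1 transcripts (95% interval 0 to 0.353 per 10000). The 1 Esr1 transcript of the library was in well 79, which held 0 of Foxa1. Wells 34 and 80 had 0 Cited1 transcripts, and their Krt8 levels of 24.6 and 13.8 per 10000 lay above 85 and 63 of the 90 wells. Well 80 held 200 Csn3 transcripts, or 97.2 per 10000. Well 87, with 2 Foxa1 transcripts among 2248, also had 27 Krt19 and 5 Pgr transcripts. Over all 95 wells, Foxa1 and Elf5 were found together in 10, Foxa1 alone in 5, Elf5 alone in 42 and neither in 38.

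Pooled over the 5 wells with 5 or more Foxa1 transcripts, Elf5 stood at 0.574 per 10000 (0.21 to 1.25), against 2.58 (2.02 to 3.24) in the 80 wells with no Foxa1. Well 29 gave 65391 of the 104604 transcripts pooled, and without it Elf5 stood at 0.765 with an interval of 0.158 to 2.24, which overlaps that of the 80 wells. Pgr stood at 7.74 (6.15 to 9.62) against 0.215 (0.0788 to 0.467), and without well 29 at 2.81 (1.4 to 5.02). Prlr stood at 12.6 (10.6 to 15) against 1.57 (1.14 to 2.11), and without well 29 at 4.59 (2.72 to 7.25). Elf3 was found in all 5 of those wells, in 0 of the 10 with 1 or 2 Foxa1 transcripts and in 14 of the 80 with none, at levels of 1.53 (0.874 to 2.48) in the 5 and 0.644 (0.382 to 1.02) in the 80. The milk and luminal list stood at 106 against 367 per 10000, and at 172 without well 29. Those 5 wells were deeper, with a median of 7200 transcripts against 2682. The basal list was at 0.478 and the leukocyte list at 1.91 per 10000 in the 5 wells, against 1.75 and 5.08 in the 80. The fibroblast list was higher in the 5 wells, at 4.97 (3.71 to 6.52) and without well 29 at 12.2 (9.03 to 16.2), against 1.29 (0.902 to 1.78), and its part in these values was not tested. All 95 wells belong to a single library, so these intervals show counting error and not the spread between samples.

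**Figure D3:**
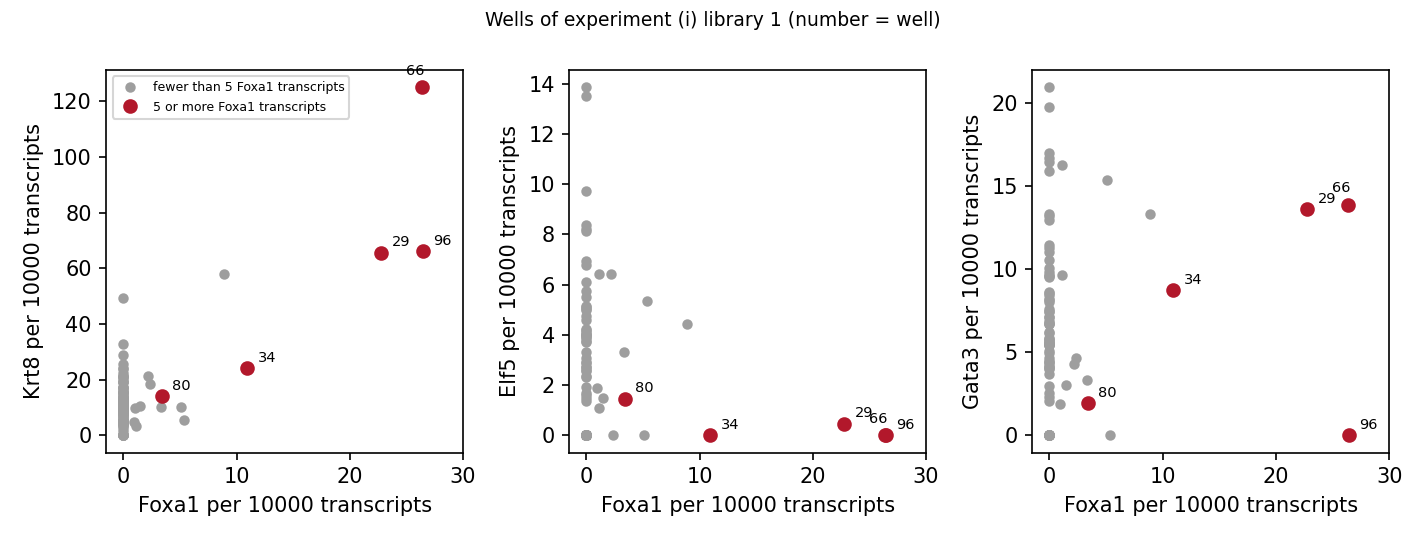
Krt8, Elf5 and Gata3 against Foxa1 in the 95 used wells of library 1 of experiment (i), each in transcripts per 10000 transcripts; red points are the 5 wells with 5 or more Foxa1 transcripts, labelled by well. Wells 29, 66 and 96 lie at 22.8 to 26.4 for Foxa1, at the top for Krt8 and at or near 0 for Elf5, while Gata3 is 0 in well 96.

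Further regulators and targets of luminal epithelium were read from lists, beside the same counts over all genes. Of 30 related epithelial regulators with a row, 6 were tested, and between TEneg and TEpos none passed in edgeR, where 88 genes had an unadjusted p under 0.05. The most abundant of the list were Zfp36l1, an RNA decay factor (log2 fold change -0.41, adjusted p = 0.25), and Cebpb (-0.35, adjusted p = 0.495). Cebpb, a factor that myeloid cells also use, stood at 7.98 ± 1.85 per 10000 in TEpos and 11.9 ± 2.89 in BEneg, and the rise of 0.93 on the log2 scale passed (SE 0.26, edgeR adjusted p = 0.00386). Sox9 stood at 9.27 ± 2.5 in TEpos and 3.36 ± 1.51 in BEneg, and fell by 1.13 (SE 0.36, adjusted p = 0.0106). From TEneg to BEneg, Cebpb alone of the 6 passed (1.28, adjusted p = 0.000333). Beside these counts, 27.1% of all genes were called higher from TEpos to BEneg, 23.9% higher from TEneg to BEneg and 4.69% higher from TEpos to TEneg.

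Of 22 junction and epithelial genes with a row, 6 were tested, and 4 of them fell from TEpos to BEneg and from TEneg to BEneg, beside 21% and 17.1% of all genes called lower. The medians of the 6 were -2.57 and -1.89 against -0.08 and -0.05 over all genes. The 4 were Krt8, Krt18, Epcam and Cldn3. The luminal keratin gene Krt18 stood at 11.4 ± 5.17 per 10000 in TEpos and 1.27 ± 0.544 in BEneg, and fell by 2.99 (SE 0.44, edgeR adjusted p = 2.38e-06). Cldn3, a tight junction claudin, stood at 6.55 ± 2.2 and 0.623 ± 0.525, and fell by 2.97 (SE 0.51, adjusted p = 1.87e-05). None of the 6 passed between TEneg and TEpos, where Epcam was at -0.76 (adjusted p = 0.0947) and Krt18 at -0.78 (adjusted p = 0.102).

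Of 19 milk and luminal genes with a row, many of them targets of the alveolar programme, 6 were tested. From TEpos to TEneg 3 of the 6 fell, beside 1.63% of all genes called lower, with a median of -0.66 against -0.01 over all genes. From TEneg to BEneg 5 fell (17.1% of all genes, medians -1.77 and -0.05), and from TEpos to BEneg 6 fell (21%, medians -2.29 and -0.08). Clic6, which encodes a chloride channel protein, stood at 7.45 ± 1.53 per 10000 in TEpos and 2.51 ± 0.966 in TEneg, and fell by 1.31 on the log2 scale (SE 0.34, edgeR adjusted p = 0.0119). The iron carrier gene Trf fell by 2.14 from TEpos to BEneg (SE 0.22, adjusted p = 3.71e-09). Lists of 3 other cell types stood higher in all TEneg than in all TEpos libraries: basal genes at 12.1 to 102 per 10000 against 2.86 to 5, endothelial genes at 14.1 to 30.6 against 2.92 to 7.03, and monocyte and macrophage genes at 11.2 to 28.3 against 4.71 to 8.78. Most transcripts of the monocyte and macrophage list were of 1 gene, Apoe, with 185 of 264 in TEneg and 68 of 119 in TEpos. The leukocyte list overlapped between the populations, at 4.52 to 12.7 in TEneg and 3.63 to 15 in TEpos. The part of other cell types in the difference between TEneg and TEpos was not tested.

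Of 13 oestrogen response genes with a row, 2 were tested, and they moved apart. Igfbp5, a growth factor binding protein, rose by 0.72 on the log2 scale from TEpos to TEneg (SE 0.19, edgeR adjusted p = 0.0139), and fell by 1.63 from TEpos to BEneg and by 2.35 from TEneg to BEneg. S100a6, a calcium-binding protein, rose by 2.45 from TEpos to BEneg (SE 0.30, edgeR adjusted p = 1.58e-07) and by 2.54 from TEneg to BEneg. Of all genes tested, 6.33% were called in either direction from TEpos to TEneg, 48.2% from TEpos to BEneg and 41% from TEneg to BEneg. Against that background, these 2 genes are not read as a result about oestrogen response. The factors of epithelial-to-mesenchymal transition and of basal cells had 11 genes with a row and 0 tested. Sox10 was the most abundant of these, at 4.38 ± 1.7 per 10000 in TEpos, 2.86 ± 1.04 in TEneg and 1.61 ± 1.33 in BEneg. Zeb1, a repressor of epithelial genes, was at 0 in the TEpos sums, 0.701 ± 0.311 in TEneg and 0.531 ± 0.627 in BEneg. These levels rest on 15 transcripts in all, and the 0 in pooled TEpos allows up to 0.159 per 10000. The part of other cell types in them was not tested.

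Genes whose levels ran most like those of the factors were taken from 757 genes with at least 100 transcripts over the 13 sums of experiment (ii), by Pearson's r of log2(level + 0.5). For Gata3 these were Tob1 (0.965), Wbp5 (0.965) and Slc12a2 (0.932), and for Ehf they were Wbp5 (0.947), Clu (0.946) and Epcam (0.945). The median r over the 757 genes was 0.266 for Gata3 and 0.237 for Ehf, and r between Gata3 and Ehf was 0.923. The 13 sums share 4 libraries and fall into populations, so these values describe the order of the populations and carry no p.

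**Figure D4:**
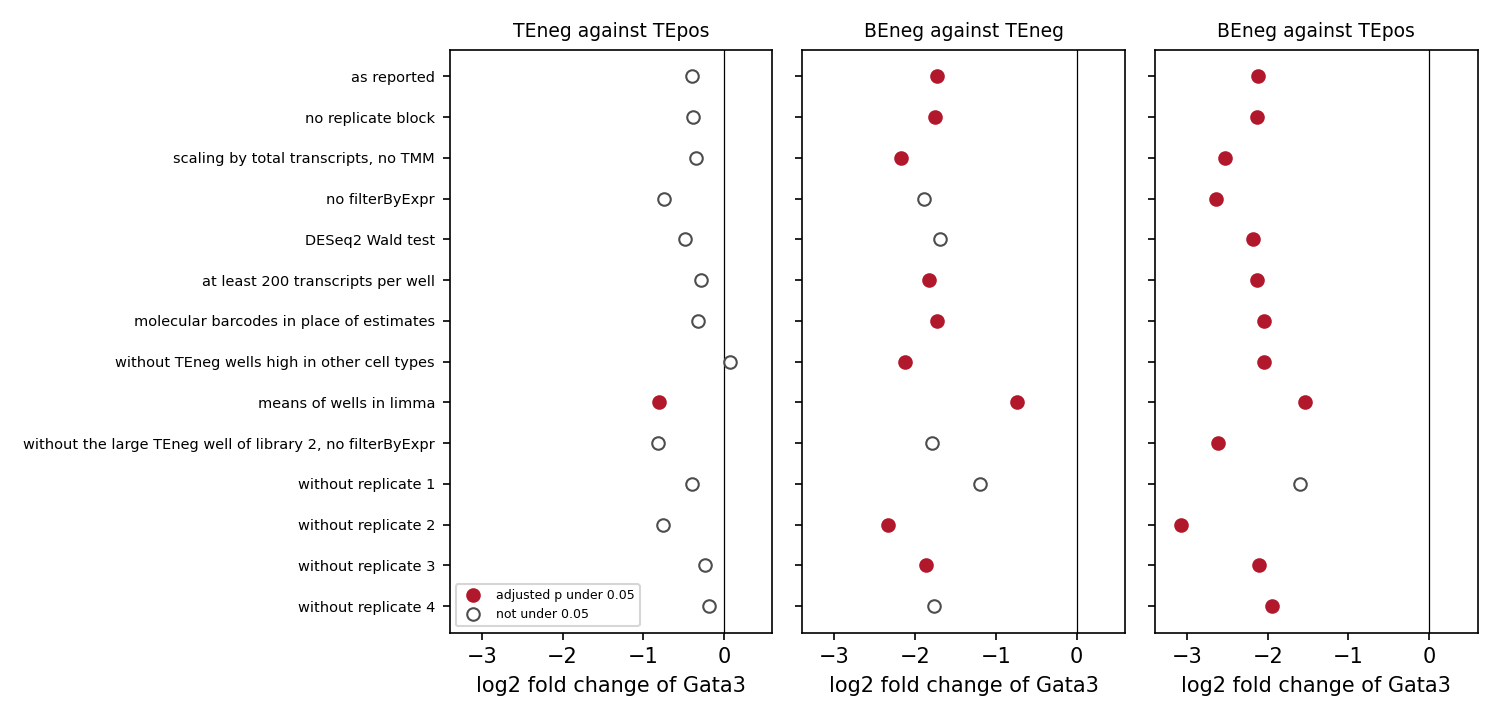
Log2 fold change of Gata3 in the 3 comparisons, as reported and under 13 alternatives; filled points have an adjusted p under 0.05 and open points do not. From TEpos to BEneg the value ranges from -3.08 to -1.54 and is called in all alternatives but the one without library 1 (written as replicate 1), and between TEneg and TEpos it ranges from -0.82 to 0.08.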

How the data were processed

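The deposited tables hold estimated counts (transcripts of each gene in each well, unscaled), made by the authors from CEL-seq reads, with BWA 0.6.2-r126 and mm10 named per the submitters' processing notes. How transcripts were counted remains not given in the sources used here. In the values, an estimate is 256 x ln(256/(256 - k)) with k, the molecular barcodes seen, whole within 3.1e-13. Spike-ins (73 of them) were left out of every total. Of 96 cell barcodes, 72 occur in all 4 libraries of experiment (ii). A well was meant to take 1 cell, and doublets were not called.

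Estimates of wells with at least 500 transcripts were summed per library and population and rounded. The 12 TEpos, TEneg and BEneg sums were fitted in edgeR 4.0.16 (quasi-likelihood, TMM, filterByExpr, Benjamini-Hochberg over 490 genes, threshold 0.05) with library as a block, tested on simulated data first. The pairing comes from the design, since each library holds wells of all 3 populations, and same-library residuals had correlations of 0.0608 to 0.351. With the block, p-values measure how the differences between populations vary from library to library. Nothing in the labels says that libraries are separate animals, so that spread may be technical. Sums of a population differed by more than sampling noise (chi-square per degree of freedom 1.61 to 3.14). limma 3.58.1 and DESeq2 1.42.0 served in alternatives, under R 4.3.3. BEpos and experiment (i) entered no test.

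The 8 factors and the gene lists were chosen with earlier results of these data known. Genes named from a list are those past the threshold, at most 4 per list and comparison, or else its 2 most abundant. Likeness was computed for factors with at least 30 transcripts.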

Additional observations from a re-analysis of the deposited data

Results flagged for a closer look

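Among 20 sets of 4 libraries of experiment (ii) (a factor, or the sum of 7, in a population), 5 had a library far from the other 3. A chance rate of about 1 in 20 holds for continuous values, and not for sets such as these with 0 in 3 libraries, where any lone transcript stands apart. All 5 were library 2, the deepest library of each of the 3 populations, and each rests on 1 or 2 transcripts, those of Esr1 and Elf5 from the large TEneg well: Klf5 in TEpos (0.139 per 10000), Esr1 in TEneg (0.091), Elf5 in TEneg (0.091), Klf5 in BEneg (0.788) and Grhl2 in BEneg (0.394), each against 0 in the other 3 libraries. Wells with fewer than 500 transcripts, which entered no comparison, also held factor transcripts above the 3 that a count of 0 allows. Library 3 of experiment (i) had 5 Ehf transcripts in 2 of its 95 such wells, 3.76 per 10000. The 27 such TEneg wells of experiment (ii) had 4 Gata3 transcripts, 5.96 per 10000.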

How the results depend on the processing

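Of 490 genes, 31 were called between TEneg and TEpos, 201 between BEneg and TEneg and 236 between BEneg and TEpos. The count for TEneg against TEpos was 20 with no replicate block for the library (17 higher and 3 lower), 17 with at least 1000 transcripts per well, 10 without TEneg wells high in other cell types, 55 without the large TEneg well (added after the data were seen) and 19 to 42 when a library was left out. It was 99 with no filter (11431 genes). With no filter and no large TEneg well, also added, the 3 counts were 136, 450 and 607. The counts for BEneg against TEneg and BEneg against TEpos were 461 and 581 with no filter, 111 and 125 with at least 1000 transcripts per well (375 genes tested), 55 and 65 with wells thinned to 500 transcripts (161 genes tested), 315 and 374 with means of wells in limma, and 168 to 223 and 193 to 258 when a library was left out. Scaling by total transcripts alone moved the median of all genes to -0.49 and -0.48 and the share called higher from 58.2% and 56.4% to 34.6% and 36.9%, and Gata3, at -2.18 and -2.53, stayed lower relative to that shift. The block changed no call of Gata3. Gata3 turned from -0.39 to 0.08 between TEneg and TEpos without the wells high in other cell types, and the cause was not tested. Gata3 had too few transcripts to be tested with at least 1000 transcripts per well, with thinning, or with the filter and without the large TEneg well. Of 175 alternative levels of the factors, 170 lay within 1 SD of the reported mean, and the other 5 came from thinning. Many of the 175 leave out 1 of 4 libraries, which cannot move a mean by 1 SD. The count of 170 is therefore no measure of how stable the levels are. Depth limits Foxa1, Esr1, Elf5, Klf5 and Grhl2, each with at most 15 transcripts in experiment (ii).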
